A study of Mus musculus with 2 samples.

Results

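The genes described here are 10 genes of acid and base transport in the intercalated cells of the kidney collecting duct, taken by name out of the 32285 genes listed for each library. They are the anion exchangers Slc4a1 and Slc26a4, the proton pump (V-ATPase) subunits Atp6v1b1, Atp6v1g3 and Atp6v0d2, the carbonic anhydrase Car2, the ammonia channel Rhcg, the alkali-sensing receptor Insrr, and the transcription factors Foxi1 and Hmx2. All 10 members were detected in both libraries. The members are a list by known function that was drawn up with earlier results of these data known.

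Intercalated cells keep the acid-base balance of the body. Type A cells secrete protons into the urine through apical V-ATPase and return bicarbonate to the blood through the basolateral exchanger AE1, which Slc4a1 encodes. Type B cells do the reverse and secrete bicarbonate through the apical exchanger pendrin, the product of Slc26a4. Both depend on cytosolic carbonic anhydrase II (Car2) for protons and bicarbonate, and both need the forkhead factor Foxi1 to form.

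The data are droplet single-cell RNA libraries (10x Genomics) of 1 control and 1 ischemia kidney, both from the male wildtype C57BL/6J strain at 19 weeks of age. The control kidney was the uninjured kidney of the opposite side, and the ischemia kidney had 27 min of ischemia and 24 h of reperfusion. The labels name no transgene and no agent, and do not say whether both kidneys came from 1 animal. Each condition has 1 library, so no test between conditions was made, cells were not counted as replicates, and library and condition cannot be told apart. A level is given as CPM, a gene's unique molecular identifiers (UMIs) added up over the cells of a group, per 1000000 UMIs of those cells. Ranges in parentheses are exact 95% intervals that cover counting error only.

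After filtering, 12586 control and 13116 ischemia cells remained, and 92818 control and 73049 ischemia UMIs belonged to the members. In all, 88 barcodes occurred in both libraries, and 2 of the IC-like cells described next carried the barcode of a kept cell of the other library. A cluster of 279 cells was called IC-like from 12 intercalated cell markers that do not include the members. It held 151 control cells (1.20% of kept cells, 1.02–1.41) and 128 ischemia cells (0.976%, 0.815–1.16). These cells had a median of 10696 UMIs and 20.6% mitochondrial UMIs (control), against 16265.5 UMIs and 15.7% (ischemia). All 12 markers were above 10 CPM in the IC-like cells of both libraries. For example, Slc4a9, a basolateral transporter of type B cells, was at 1291 CPM in control, against 842 CPM in ischemia. The separation from the neighbouring collecting duct principal cells was incomplete: the CD-PC-like cluster of 364 control and 314 ischemia cells also held Slc4a9, at 258 and 108 CPM. Ratios of the members are therefore drawn for both clusters and for all kept cells, which need no cluster, and part of them are stated in the text.

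Of the 6 members with an entry in the RefSeq promoter table (GRCm38.p6), the 250 bases before the start of transcription were searched on both strands for TNTTTAC, a core sequence bound by forkhead factors such as Foxi1. These letters occurred before the start of Atp6v1b1 and before 1 of the 2 listed starts of Hmx2, and in 10.9% of the 32817 promoters searched. The sequences of both, and of Slc26a4 as the exchanger of type B cells, are shown 5′ to 3′ on the strand of the gene, with the matched letters in capitals. They lie at chr6:83742767-83743016 (plus strand), chr7:131548507-131548756 (plus strand) and chr12:31559985-31560234 (minus strand).
Atp6v1b1: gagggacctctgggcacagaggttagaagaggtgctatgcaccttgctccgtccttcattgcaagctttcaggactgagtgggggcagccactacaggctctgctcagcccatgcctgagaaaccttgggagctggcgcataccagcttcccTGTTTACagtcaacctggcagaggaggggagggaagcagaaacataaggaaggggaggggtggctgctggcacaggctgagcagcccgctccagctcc
Hmx2: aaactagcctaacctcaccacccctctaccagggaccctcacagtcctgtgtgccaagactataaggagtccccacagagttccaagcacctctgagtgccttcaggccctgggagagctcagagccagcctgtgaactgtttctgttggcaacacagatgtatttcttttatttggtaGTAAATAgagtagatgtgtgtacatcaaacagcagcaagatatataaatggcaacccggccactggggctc
Slc26a4: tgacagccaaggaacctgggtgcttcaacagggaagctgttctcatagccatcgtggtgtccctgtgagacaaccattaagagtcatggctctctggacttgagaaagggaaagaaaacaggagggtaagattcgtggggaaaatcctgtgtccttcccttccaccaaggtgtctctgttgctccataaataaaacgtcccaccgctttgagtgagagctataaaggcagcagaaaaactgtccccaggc
The match of Atp6v1b1 reads TGTTTAC and begins 98 bases before the start, and that of Hmx2 is on the other strand and begins 71 bases before the start. No match was found in the same window of Slc26a4, Atp6v1g3, Foxi1 or Rhcg. Slc4a1, Atp6v0d2, Insrr and Car2 were not searched.

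Across the 13 named cell types, 9 of the 10 members had their highest CPM in IC-like cells in the control library, against 5.63% of the 16995 genes tested. The count was also 9 in the ischemia library, against 6.73% of 17407 genes. The exception in both was Rhcg, which moves ammonia across the membranes of several distal nephron cells. It was at 398 CPM (385–412) in CD-PC-like and 310.4 CPM (287–335) in IC-like control cells. In the ischemia library Rhcg was at 168 CPM (160–176) and 132 CPM (117–148), so the order was the same. The CD-PC-like cells had the second highest level of each of the other 9 members in both libraries. By UMIs, control CD-PC-like cells held more than IC-like cells of Slc4a1, Foxi1, Atp6v1b1, Rhcg and Car2, and fewer of the other members. Of all Slc4a1 UMIs of kept cells, CD-PC-like cells held 56.4% in control and 38.3% in ischemia, and IC-like cells 32.3% and 51.1%.

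**Figure D1:**
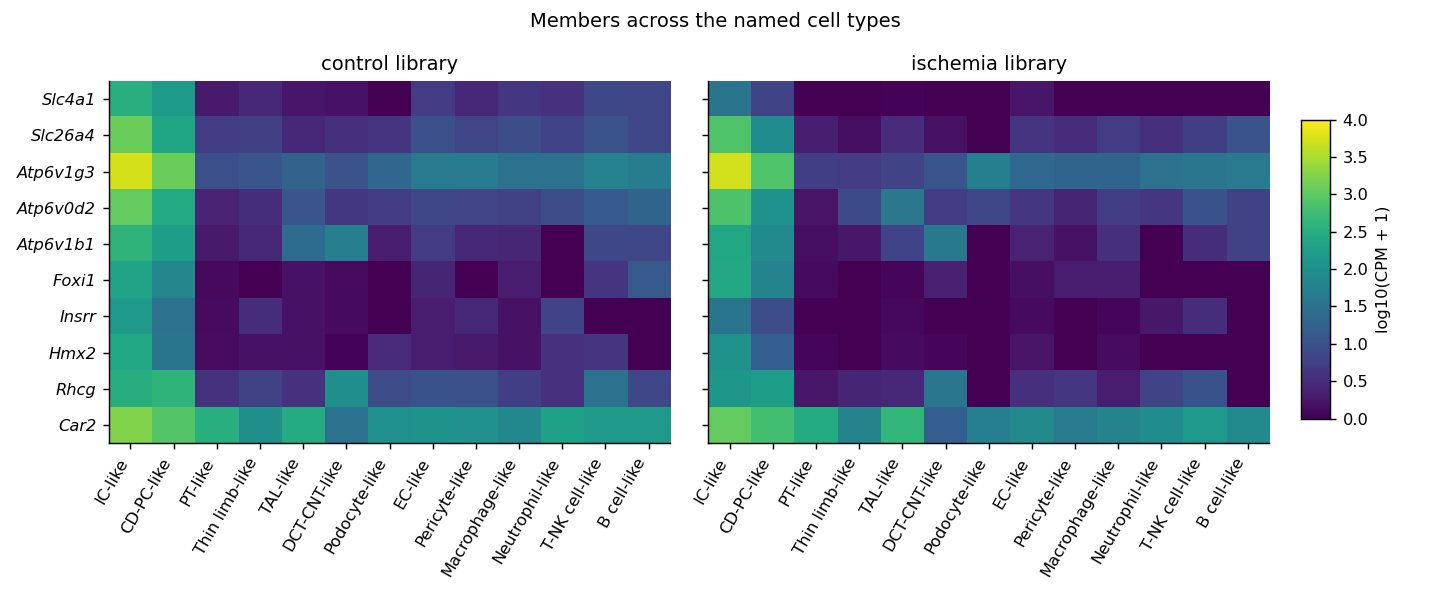
Each square gives the level of a member (rows) in a named cell type (columns) as log10(CPM + 1), with the control library on the left and the ischemia library on the right. The IC-like and CD-PC-like columns carry most of the signal; Car2 is also seen in PT-like and TAL-like cells, Rhcg and Atp6v1b1 in DCT-CNT-like cells, and Slc4a1 in the ischemia library is low in every column, at 33.3 CPM in IC-like cells.

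Endothelial (EC-like) cells, which should lack these genes, served as a measure of free RNA. Their control levels were between 1.001 CPM for Insrr and Hmx2 and 109 CPM for Car2. The IC-like level was 15.9 times the EC-like level for Car2 and between 33.7 times (Rhcg) and 243 times (Hmx2) for the other members in the control library. In the ischemia library these ratios ran from 13.7 for Car2 to 574 for Foxi1.

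Of the 10 members, 4 were at least 2-fold lower in IC-like cells of the ischemia library (Slc4a1, Insrr, Hmx2 and Rhcg), against 3.77% of 10284 genes, and 0 were at least 2-fold higher, against 6.95%. The count was 2 without integration of the libraries, where the ratio was 0.628 for Hmx2 and 0.507 for Rhcg. It was 3 with the members kept among the variable genes (Hmx2 0.551) and with the collecting duct clustered again (Hmx2 0.575). The median ratio of ischemia to control CPM was 0.616 over the members and 1.05 over all genes tested, and 9 of 10 ratios lay below 1. In all kept cells the counts were 4 lower, the same 4 genes, against 4.77% of 18925 genes, and 0 higher, against 10.1%. There the median was 0.523 over the members and 1.10 over all genes. Of the subtypes described below, type B-like cells gave 971928 UMIs in control and 739862 in ischemia, and type A-like cells 791637 and 1166791. An IC-like ratio therefore does not separate the level in a subtype from the mix of subtypes.

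**Figure D2:**
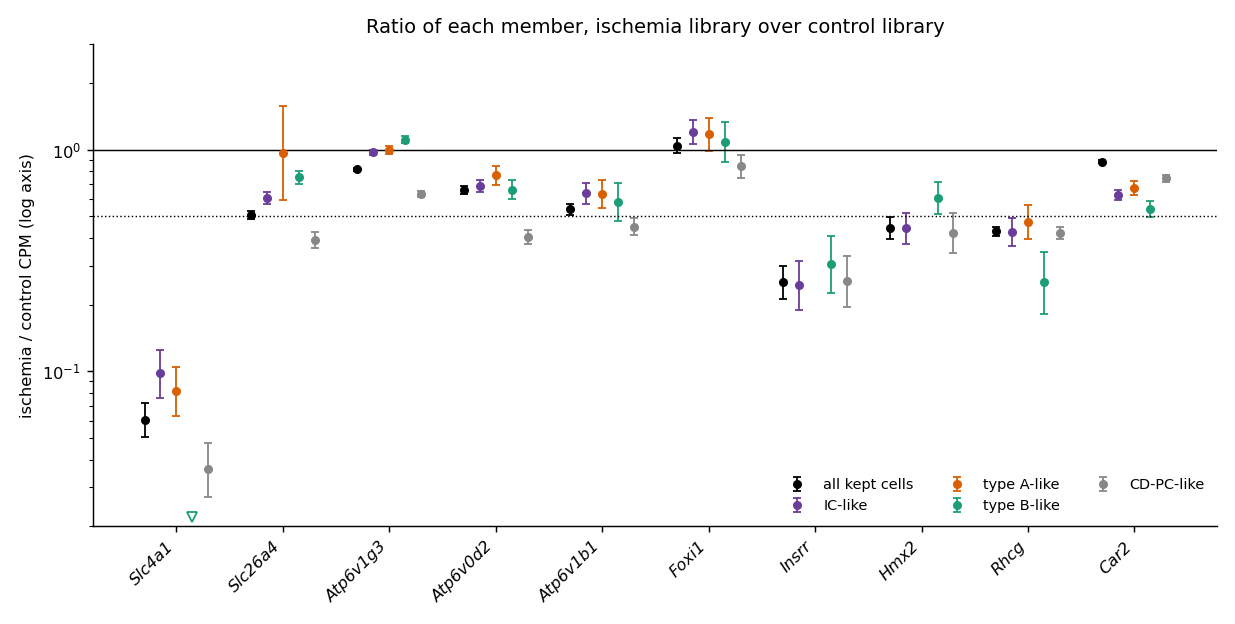
Points give the ischemia to control ratio of CPM for each member (log axis) with exact 95% counting intervals, in all kept cells, IC-like, type A-like, type B-like and CD-PC-like cells; the solid line marks no difference and the dotted line a 2-fold lower level. An open triangle marks 0 UMIs in the ischemia library, and members with fewer than 20 UMIs in a group are not drawn. Slc4a1 lies lowest in all of these groups, with 0.0983 in IC-like cells, where Atp6v1g3 lies nearest to 1, with 0.974.

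The exchanger gene Slc4a1 (ENSMUSG00000006574, chr11:102348824-102366203, minus strand of GRCm38) was at 338 CPM (314–364) in control, against 33.3 CPM (26.0–41.9) in ischemia IC-like cells, from 730 and 72 UMIs. The level in the ischemia library was thus 10.2-fold lower (ratio 0.0983, 0.0761–0.125). It was the second lowest ratio of the 7840 genes that reached 50 UMIs in these cells. In all kept cells, the library totals were 2260 UMIs in control and 141 in ischemia, 18.1 and 1.10 CPM, a ratio of 0.0604 (0.0506–0.0717). The CD-PC-like cells had 153 CPM in control, against 5.55 CPM in ischemia, a ratio of 0.0363 (0.0272–0.0477). Red blood cell precursors also express Slc4a1, and the 7 haemoglobin and other red cell markers together were at 0.927 CPM in control, against 1.85 CPM in ischemia IC-like cells. These sums cover IC-like cells only, and the part of red cell RNA in the Slc4a1 counts of any group was not tested.

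The type B exchanger Slc26a4 (chr12:31519827-31559969, minus strand) was at 1280.25 CPM in control, against 777 CPM in ischemia IC-like cells. Its ratio was 0.607 (0.571–0.645), an interval that lay wholly above that of Slc4a1. In all kept cells the ratio was 0.508 (0.485–0.532), and in CD-PC-like cells it was 0.392 (0.361–0.425).

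The 3 pump subunits differed in their ratios. Atp6v1g3 (chr1:138273738-138289462, plus strand), the G subunit isoform of the kidney, was at 5484 CPM (5385–5584) in control, against 5343 CPM (5246–5441) in ischemia IC-like cells. The ratio was 0.974 (0.9496–0.9997), and its side of 1 turned in 4 of the alternatives tried. In all kept cells Atp6v1g3 was at 203 CPM (201–206) in control, against 166 CPM (164–168) in ischemia. Atp6v0d2 (chr4:19876841-19922605, minus strand), the d subunit isoform of the membrane sector, was at 1095 CPM in control, against 752 CPM in ischemia, a ratio of 0.686 (0.644–0.731). Atp6v1b1 (chr6:83742990-83758855, plus strand), the B subunit whose loss causes distal renal tubular acidosis, was at 395 CPM (369–423) in control, against 251 CPM (230–273) in ischemia, with a ratio of 0.635 (0.569–0.708). The intervals of Atp6v0d2 and Atp6v1b1 overlapped each other, and that of Atp6v1g3 lay above both.

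Car2 (chr3:14886273-14900770, plus strand) was at 1732 CPM in control, against 1084 CPM in ischemia IC-like cells, a ratio of 0.626 (0.594–0.659). Of all Car2 UMIs of kept cells, IC-like cells held 8.75% in control and 6.03% in ischemia, and PT-like (proximal tubule) cells held 43.7% and 42.9%. Rhcg (chr7:79593363-79617657, minus strand), with 310.4 CPM in control, against 132 CPM in ischemia, had a ratio of 0.426 (0.369–0.489). Rhcg shares its strand with the overlapping gene Gm45170, so reads in the overlap could not be assigned with certainty.

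Insrr (chr3:87796951-87816101, plus strand), a receptor of the insulin receptor family that is activated by alkaline fluid, was at 143 CPM (128–160) in control, against 35.1 CPM (27.7–43.9) in ischemia IC-like cells. Its ratio of 0.245 (0.188–0.316) was the lowest among the members after Slc4a1, and the 18th lowest of the same 7840 genes. Among the transcription factors, Hmx2 (chr7:131548773-131558014, plus strand) was at 243 CPM (222–265) in control, against 107 CPM (93.8–122) in ischemia, a ratio of 0.441 (0.377–0.516). Foxi1 (chr11:34204338-34208089, minus strand) was the only member above 1, with 217 CPM (198–237) in control, 261 CPM (240–283) in ischemia and a ratio of 1.20 (1.06–1.36). In all kept cells the ratio of Foxi1 was 1.04 (0.963–1.13), an interval that holds 1. Insrr overlaps Pear1 and Hmx2 overlaps Fgfr2, both on the opposite strand.

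Within the IC-like cluster, a second clustering gave 5 sub-clusters, of which 2 were named type A-like (99 cells) and 1 type B-like (59 cells) from subtype markers that exclude the members. Type A-like cells numbered 46 in control and 53 in ischemia, and type B-like cells 34 and 25. Of the 4 type B markers, Spink8 and Slc4a9 were higher in type B-like control cells, with type A-like to type B-like ratios of 0.161 and 0.387. Oxgr1 (0.940, 0.782–1.13) and Slc4a8 (0.859, 0.278–2.50) did not separate the 2 groups. Most control type A-like cells were in sub-cluster 4 (30 control, 2 ischemia) and most ischemia ones in sub-cluster 1 (16 control, 51 ischemia). The other 2 sub-clusters stayed unnamed. One, of 76 cells (47 control, 29 ischemia), was led by proximal tubule genes over the other IC-like cells. It scored as type A, with 5 type A markers detected, and stayed unnamed only by a rule made after the data were seen. The other, of 45 cells with a median of 4.48% mitochondrial UMIs, was closest to type B. It stayed unnamed because only 2 type B markers were detected and its type B score was negative. Its median depth was 3788 UMIs, against 29094 in the type B-like sub-cluster.

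Slc4a1 was higher in type A-like and Slc26a4 in type B-like cells, although neither gene was used to form them. In the control library, Slc4a1 was at 755 CPM (696–818) in type A-like and 56.6 CPM (42.6–73.7) in type B-like cells, a ratio of 13.3 (10.1–17.9). Slc26a4 was at 39.2 CPM (26.6–55.6) in type A-like and 2308 CPM (2213–2405) in type B-like cells. The type A-like UMIs of Slc26a4 came mostly from 1 cell, which held 29 of 31.

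Insrr and Hmx2 followed Slc26a4. Insrr was at 3.79 CPM in type A-like and 261 CPM in type B-like control cells (3 and 254 UMIs). Hmx2 was at 2.53 CPM in type A-like and 461 CPM in type B-like control cells (2 and 448 UMIs), and at 0 and 280 CPM in the ischemia library. The remaining members differed less between the subtypes: the control ratio of type A-like to type B-like CPM was 1.58 (1.33–1.87) for Rhcg, 1.41 (1.21–1.63) for Atp6v1b1, 1.25 (1.03–1.51) for Foxi1, 0.996 (0.929–1.07) for Car2, 0.786 (0.718–0.860) for Atp6v0d2 and 0.724 (0.696–0.754) for Atp6v1g3.

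**Figure D3:**
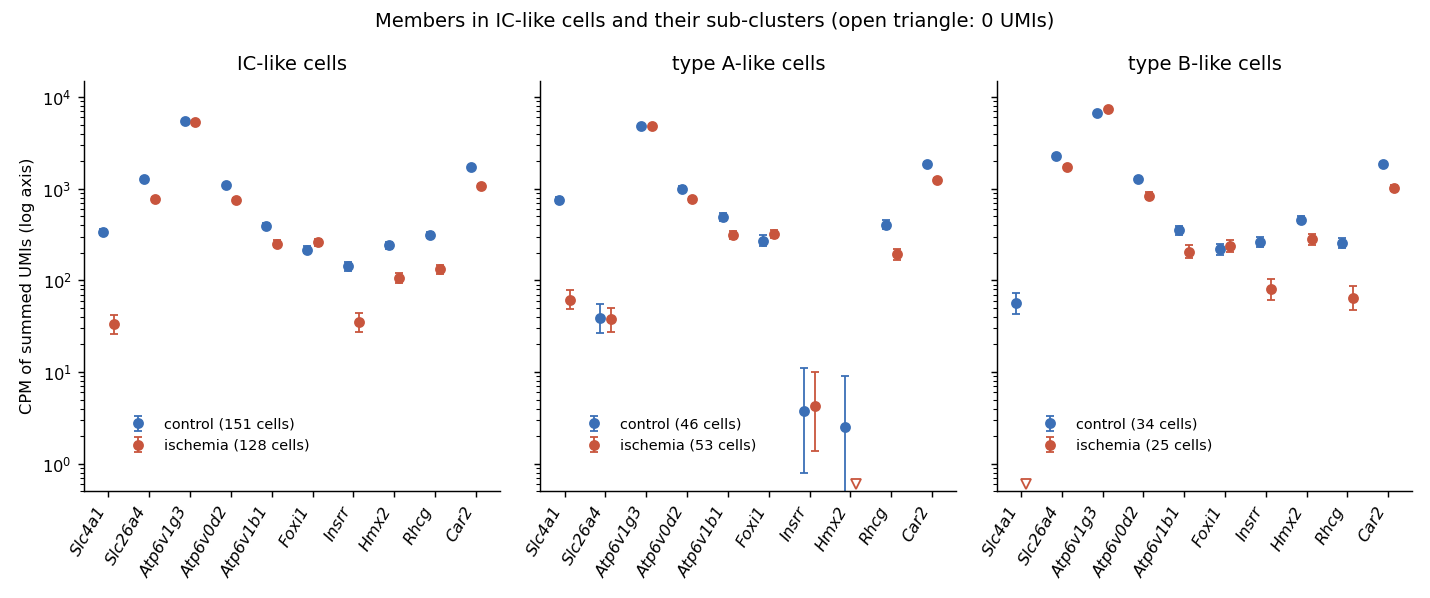
Points give the CPM of each member (log axis) with exact 95% Poisson intervals in the control and ischemia libraries, for IC-like cells and their type A-like and type B-like sub-clusters; an open triangle marks 0 UMIs. Slc4a1 stands at 755 CPM in control, against 61.7 CPM in ischemia type A-like cells, and Insrr and Hmx2 are much higher in type B-like than in type A-like cells.

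In type A-like cells, 2 of the 8 members with at least 20 UMIs were at least 2-fold lower in the ischemia library, against 3.29% of 8308 genes, and 0 were at least 2-fold higher, against 8.67%. They were Slc4a1 and Rhcg. Slc4a1 was at 61.7 CPM (48.3–77.7) in ischemia type A-like cells, 12.2-fold lower than in control (ratio 0.0817, 0.0631–0.104). Within sub-cluster 1 alone it was at 759 CPM (657–872) in control, against 58.2 CPM (45.001–74.0) in ischemia. All 5 type A markers had lower CPM in ischemia than in control type A-like cells, where the median ratio over all genes tested was 1.07. The share of all genes below 1 was not counted. Slc26a7, a basolateral anion exchanger, was at 117 and 22.3 CPM (ratio 0.190, 0.118–0.296), and the receptor Kit at 534 and 316 CPM. Aqp6, an anion-permeable water channel, was at 1358 and 920 CPM, the adhesion receptor Adgrf5 at 1377 and 1091 CPM, and the transcription factor Dmrt2 at 208 and 202 CPM. Lower levels were also seen for type B markers in type B-like cells: Slc4a9 (1584 and 1196 CPM), Oxgr1 (285 and 130) and Spink8 (1295 and 858). Slc4a8 was higher there (10.3 and 18.9 CPM).

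In type B-like cells, 3 of 10 members were at least 2-fold lower, against 5.37% of 7283 genes, and 0 higher, against 7.87%. They were Insrr, with 261 and 79.7 CPM (ratio 0.305, 0.226–0.406), Rhcg, with 257 and 64.9 CPM (0.252, 0.181–0.345), and Slc4a1. Slc4a1 had 55 UMIs in control, in 5 of 34 cells, and 0 UMIs in ischemia, which is at least 13.96-fold lower if 0 is read as 3 UMIs. Type A markers also had UMIs in these type B-like cells: Aqp6 had 109 in control and 0 in ischemia, Dmrt2 28 and 0, and Kit 201 and 16. Adgrf5 had 192 and 119, and Slc26a7 had 0 in both. Whether the Slc4a1 UMIs were RNA of type A cells was not tested. Slc26a4 itself was at 1735 CPM in ischemia type B-like cells, a ratio of 0.752 (0.702–0.806). Hmx2 was at 461 CPM (419–506) in control, against 280 CPM (243–321) in ischemia type B-like cells. Hmx2 was thus at least 2-fold lower in IC-like cells as a whole but not in type B-like cells. Atp6v1g3 was at 6672 CPM in control, against 7384 CPM in ischemia, a ratio of 1.11 (1.07–1.15), and at 4833 and 4827 CPM in type A-like cells (0.999, 0.958–1.04).

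The same comparison was made after the IC-like and CD-PC-like cells were clustered again together. It gave 54 control and 51 ischemia type A-like cells, with Slc4a1 at 659 and 56.4 CPM (ratio 0.0856, 0.0660–0.109). It gave 93 control and 69 ischemia type B-like cells, with Slc26a4 at 1635 and 1122 CPM (0.686, 0.653–0.722) and Insrr at 197 and 65.6 CPM (0.333, 0.275–0.402). Of these, 66 control and 49 ischemia cells were in a sub-cluster with the principal cell marker Hsd11b2 among its 10 leading genes. This group therefore also held principal cell RNA. Slc4a1 was at 98.4 CPM in the control cells of the group, in 20 of 93. Rhcg in these type B-like cells was at 336 and 183 CPM, a ratio of 0.544 (0.482–0.614), closer to 1 than in the sub-cluster above.

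At the level of single cells, Slc4a1 and Slc26a4 were rarely found together in IC-like cells. In control IC-like cells, 52 of 151 cells (34.4%, 26.9–42.6) had UMIs of Slc4a1 alone, 63 (41.7%) of Slc26a4 alone, 9 (5.96%, 2.76–11.01) of both and 27 (17.9%) of neither. In ischemia IC-like cells the counts were 25 of 128 (19.5%, 13.1–27.5), 48 (37.5%), 1 (0.781%, 0.0198–4.28) and 54 (42.2%). Cells with both were a larger part of the positive cells in the CD-PC-like cluster. There, 63 of 364 control cells held Slc4a1 alone, 38 Slc26a4 alone and 26 (7.14%, 4.72–10.3) both. Of 314 ischemia CD-PC-like cells, 13 held Slc4a1 alone, 22 Slc26a4 alone and 12 (3.82%, 1.99–6.58) both. As counted, EC-like cells had UMIs of Slc4a1 in 2.21% and of Slc26a4 in 4.53% of control cells, and in 0.288% and 1.82% of ischemia cells. The share of IC-like cells with neither exchanger was thus larger in the ischemia library, where their median depth was also larger.

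After each cell was thinned to 1000 UMIs, 44.4% of 45 control type A-like cells still held Slc4a1, against 3.77% of 53 ischemia type A-like cells. Slc26a4 was still held by 85.3% of 34 control and by 64.0% of 25 ischemia type B-like cells. EC-like cells, with a median of 3797.5 UMIs in control and 4260 in ischemia before thinning, had Slc4a1 in 0.678% and 0.102% and Slc26a4 in 1.36% and 0.509% of cells. Both exchangers together were found in 1 of 150 control and 0 of 127 ischemia IC-like cells at this depth, the latter with an upper bound of 2.86%. The 72 Slc4a1 UMIs of ischemia IC-like cells were in 26 cells, with at most 13 in a cell, and 5 cells held 55.6% of them. In control IC-like cells 61 cells held Slc4a1, with at most 49 UMIs in a cell, and 5 cells held 27.4%.

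**Figure D4:**
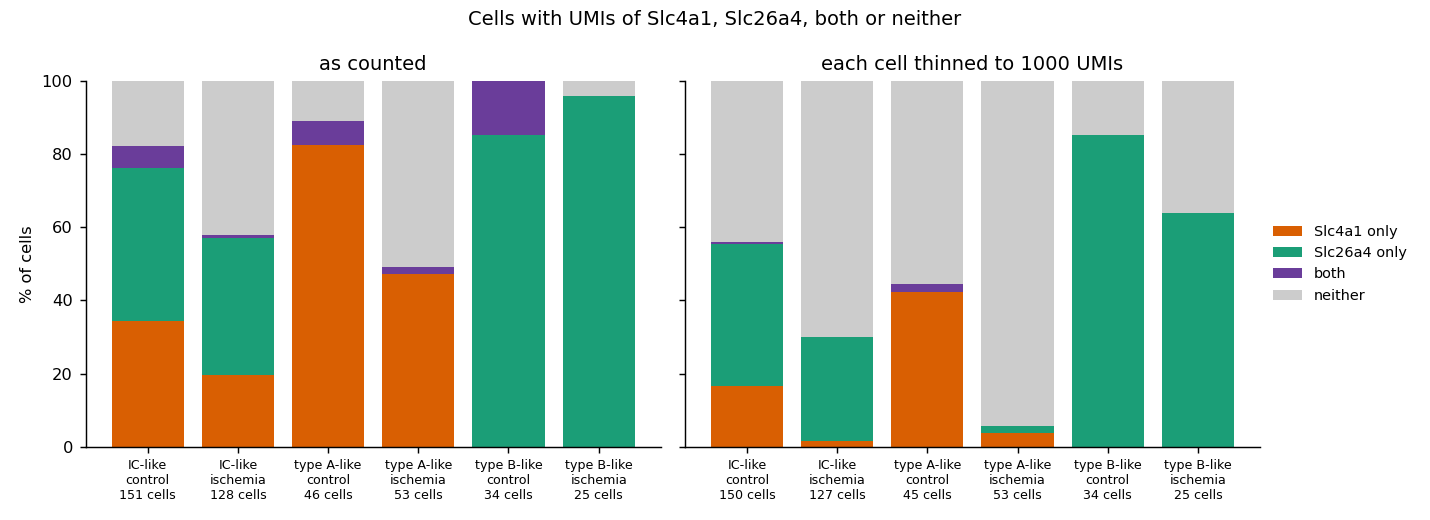
Stacked bars give the share of cells (%) with UMIs of Slc4a1 only, Slc26a4 only, both or neither in IC-like, type A-like and type B-like cells of each library, as counted on the left and with each cell thinned to 1000 UMIs on the right; cell numbers stand under the bars. The neither share of type A-like cells is 10.9% in control and 50.9% in ischemia as counted.

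Each of the 3 pump subunits has a partner isoform that most cells use, and the share of the pair's UMIs describes the choice between them. The counts are of 3′ ends and not scaled by transcript length, so a share is compared between cells and not read as a ratio of molecules. In IC-like cells, Atp6v1g3 made up 96.4% (96.0–96.7) of the UMIs of Atp6v1g3 and Atp6v1g1 in control and 96.2% (95.9–96.5) in ischemia. Atp6v0d2 made up 94.6% (93.6–95.4) and 93.0% (91.7–94.2) of the UMIs it shares with Atp6v0d1. The share of Atp6v1b1 against Atp6v1b2 was lower, at 76.6% (74.0–79.1) in control and 70.1% (66.7–73.3) in ischemia, and the intervals did not overlap.

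The partner isoforms themselves were nearly level in IC-like cells, with ratios of 1.02 (0.893–1.16) for Atp6v1g1, 0.901 (0.699–1.16) for Atp6v0d1 and 0.890 (0.742–1.07) for Atp6v1b2. In type B-like cells the share of Atp6v1b1 was 73.3% (69.0–77.2) in control and 60.3% (54.0–66.4) in ischemia. In type A-like cells it was 85.1% (81.5–88.2) and 81.2% (77.2–84.7), with intervals that overlapped. PT-like cells, which acidify endosomes with the common isoforms, had Atp6v1b1 shares of 0.612% and 0.227%.

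**Figure D5:**
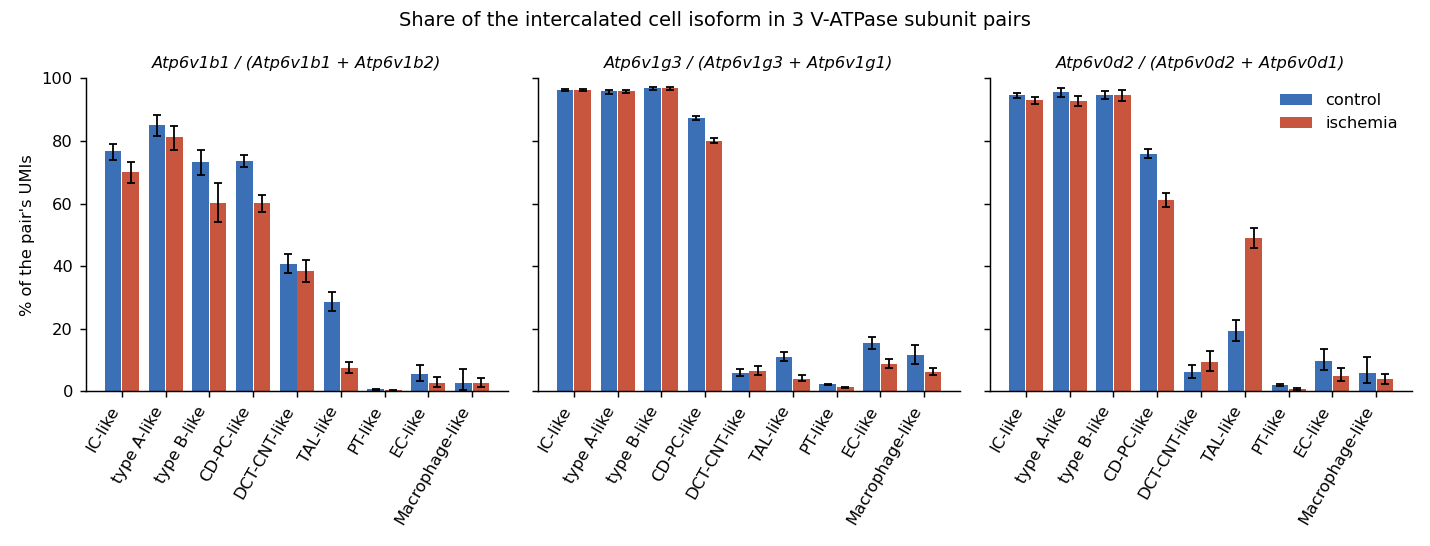
Bars give the share (%) of each member among the UMIs of the member and its common partner isoform, by cell type and library, with exact 95% binomial intervals. The Atp6v1g3 share exceeds 95% in IC-like cells of both libraries, and the Atp6v0d2 share of TAL-like cells is 19.2% in control and 48.9% in ischemia.

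Outside the collecting duct, some members were also above the EC-like level in other tubule cells. In DCT-CNT-like cells, of the distal convoluted and connecting tubule, Atp6v1b1 was at 50.04 CPM (45.5–54.9) in control, against 40.1 CPM (35.7–44.9) in ischemia, against 4.003 and 1.52 CPM in EC-like cells. Rhcg was at 97.3 CPM (91.0–104) in control, against 36.7 CPM (32.5–41.2) in ischemia DCT-CNT-like cells, a ratio of 0.377 (0.328–0.432). Car2 was at 327 CPM in control, against 290.1 CPM in ischemia PT-like cells, a ratio of 0.888 (0.869–0.906).

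In TAL-like cells, of the thick ascending limb, 2 pump subunits differed in opposite directions. Atp6v0d2 was at 10.5 CPM (8.61–12.7) in control, against 37.5 CPM (34.2–41.0) in ischemia, a ratio of 3.57 (2.89–4.45), while its EC-like level was 6.20 CPM in control, against 3.34 CPM in ischemia. Its UMIs occurred in 12.6% of 500 control and in 40.6% of 490 ischemia TAL-like cells, and in 1.20% and 2.46% after thinning. EC-like cells had it in 3.31% and 2.11% as counted, and in 0.904% and 0.509% after thinning. Median depth was 19848.5 UMIs in control and 24634 in ischemia TAL-like cells. Atp6v1b1 was at 24.5 CPM (21.6–27.7) in control, against 5.48 CPM (4.27–6.94) in ischemia TAL-like cells, a ratio of 0.224 (0.169–0.293). Car2 was at 285 CPM in control, against 445 CPM in ischemia, a ratio of 1.56 (1.49–1.63).

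In CD-PC-like cells, which held intercalated cell RNA as said above, 7 of the 10 members were at least 2-fold lower in the ischemia library, against 6.41% of 13158 genes, and 0 higher, against 7.38%. The exceptions were Atp6v1g3, with 1248 and 789 CPM (ratio 0.632, 0.613–0.651), Car2, with 842 and 625 CPM (0.742, 0.717–0.769), and Foxi1, with 71.0 and 59.7 CPM (0.842, 0.749–0.945). The number of intercalated cells in this cluster and their level per cell cannot be told apart here. In the unnamed cluster of droplets with a median of 835 UMIs, 5 of 10 members were at least 2-fold lower, against 2.61% of 11823 genes, and 0 higher, against 10.3%. Slc4a1 in that cluster was at 14.8 CPM in control, against 0.882 CPM in ischemia.

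Of 19 other V-ATPase subunits and accessory proteins, 18 had enough UMIs in IC-like cells, 1 was at least 2-fold lower, against 3.77% of all genes tested there, and 0 were at least 2-fold higher, against 6.95%. Their median ratio was 0.710, against 1.05 over all genes tested, and 16 of 18 lay below 1. The share of all genes below 1 was not counted. Atp6v1c2 and Atp6v0a4 of this list are also among the markers that named the IC-like cells. The 1 lower gene was Atp6v1c2, the C subunit isoform of intercalated cells, at 702 CPM in control, against 304 CPM in ischemia (ratio 0.432, 0.394–0.474).

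Of 22 other acid-base transport genes, 18 were tested, 6 were at least 2-fold lower, against 3.77% of all genes tested, and 0 higher, against 6.95%. Their median ratio was 0.755. Slc4a9, Slc26a7, Aqp6 and Oxgr1 of this list are also among the markers that named the IC-like cells. Slc26a7, a basolateral chloride and bicarbonate exchanger of type A cells, was at 65.8 CPM in control, against 12.0 CPM in ischemia (0.183, 0.115–0.279). Bsnd, the barttin subunit of kidney chloride channels, was at 87.1 and 28.6 CPM (0.329, 0.243–0.440), and the membrane carbonic anhydrase Car12 at 1063 and 371 CPM (0.349, 0.322–0.378). The ratio was 0.427 (0.198–0.868) for Car4, a membrane carbonic anhydrase with 28 and 12 UMIs, 0.460 (0.397–0.532) for Oxgr1, the receptor for oxoglutarate, and 0.465 (0.408–0.528) for Rhbg, the basolateral ammonia channel.

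Of 7 genes of ammonia formation, 6 were tested in IC-like cells, and 1 was at least 2-fold lower, against 3.77% of all genes tested. This was Pck1, a gene of gluconeogenesis that proximal tubule cells express strongly, at 44.5 CPM in control, against 12.0 CPM in ischemia.

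The 10 genes whose levels over 26 points (13 cell types in 2 libraries) were most like the mean of the members were Slc4a9, Atp6v1c2, Aqp6, Gm12121, Spink8, Rhbg, Dmrt2, Wscd2, Syn2 and Oxgr1. Pearson's r of log2(CPM + 10) lay between 0.962 and 0.987. The points share libraries and free RNA, and 6 of these genes are among the markers that named the cells, so r is a description only. The members' own r with their mean, of which each is a part, ran from 0.8004 for Car2 to 0.989 for Slc26a4.

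The 5 lowest ratios in IC-like cells, over the genes that reached 50 UMIs there, were those of 4930469K13Rik (0.0932), Slc4a1, Dcn (0.126), Adgb (0.142) and Rp1 (0.161). At the other end, Timp1 and Sprr1a had 0 control UMIs and were at least 16.6-fold and 73.1-fold higher if 0 is read as 3 UMIs. Mmp7, Cstdc5 and Trpv6 each had 1 control UMI, with 354, 163 and 108 ischemia UMIs.

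Genes of the marker lists of other cell types were also present in IC-like cells and differed between the libraries. The 8 injured PT markers summed to 3735 CPM in control, against 55116 CPM in ischemia, with 2 and 1 of them at 0. This list holds Spp1 and Lcn2, and Lcn2 was among the 10 genes that led sub-cluster 1 over the other IC-like cells. The sum was not split by gene, so it is not a measure of proximal tubule RNA. The 11 macrophage markers summed to 13.9 and 235 CPM, with 5 and 0 at 0, and the 10 PT markers to 727 and 411 CPM, with 0 at 0 in both. In type A-like cells the macrophage markers summed to 21.5 CPM in control, against 420.0 CPM in ischemia, against 3.09 and 17.6 CPM in type B-like cells. The macrophage list holds Cd74, which was also among the 10 genes that led sub-cluster 1 over the other IC-like cells. These sums were not split by gene either, so they are not a measure of macrophage RNA. The part of RNA of other cell types in the members' values was not tested.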

How the data were processed

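Single-cell suspensions of 1 control and 1 ischemia mouse kidney were sequenced as 10x Genomics 3′ libraries. The authors deposited raw UMI counts per gene and barcode, made with Cell Ranger 7.0.0 (per the submitters' processing notes) on the mm10 build; whether intronic reads were counted is not given in the sources used here. The filtered matrices held 15110 control and 15257 ischemia barcodes.

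Barcodes were kept if they had 200 genes or more, a UMI total between 500 and 150000, and no more than 55% mitochondrial UMIs (12586 and 13116 cells, median 3839 and 2138.5 UMIs). Counts were log-normalized (scale factor 10000), integrated and clustered in Seurat 5.3.0 (R 4.3.3, seed 42) on 2000 variable genes without the members, 30 principal components and resolution 0.3. This gave 19 clusters, of which 15 were named as 13 cell types from marker lists without the members. IC-like cells were clustered again on 1000 variable genes and 10 components at resolution 0.5. After the data were seen, red cells were required to have 50% haemoglobin UMIs, and a sub-cluster led by more than 1 marker of another cell type among its 10 leading genes was left unnamed. Scrublet (scanpy 1.11.5) called 0 doublets, so doublets were kept, and the 8% of cells with the highest scores were left out as an alternative.

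UMIs were summed per library and cell group and scaled to CPM. Exact Poisson, binomial and conditional intervals (scipy 1.17.1, Python 3.11.15) cover counting error only, since each condition has 1 library, and no p-value was computed. A gene with at least 20 UMIs over both libraries was counted as higher or lower past 2-fold. A count of 0 was read as 3 UMIs for bounds. For shares of cells, each cell was thinned to 1000 UMIs. The interval and thinning calculations were tested on simulated counts, and the clustering and naming of cells were not. The members and lists were chosen with earlier results of these data known.

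The genes named are the members, their partner isoforms, listed genes past 2-fold (at most 6 a list), the 10 genes most like the members among those with 100 or more UMIs, and the 5 highest and 5 lowest ratios among genes with 50 or more UMIs. Markers are named beside the cells they define. The alternatives were other filters, resolution 0.6, no integration, members kept among the variable genes, a marker gate, other scalings and other cell definitions.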

Additional observations from a re-analysis of the deposited data

Results flagged for a closer look

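Car2 was seen outside the cells compared above, in an unnamed cluster with 199 CPM in control and 334.763 CPM in ischemia. In the other unnamed clusters it was at 396 (380–413) and 378 (362–394), 375 (366–385) and 316 (305–327), and 93.0 (73.5–116) and 85.8 (63.9–113) CPM. The intervals of the libraries overlapped except at 375 and 316 CPM. Some members had ratios on opposite sides of 1 in IC-like cells and in another cell type, with intervals for counting error only; the difference between cell types was not tested. Atp6v1g3 had a ratio of 0.974 in IC-like and 2.57 in podocyte-like cells, the latter from 19 control and 17 ischemia UMIs. Atp6v0d2 had 0.686 in IC-like and 3.57 in TAL-like cells. Foxi1 had 1.20 in IC-like and 0.842 in CD-PC-like cells. Car2 had 0.626 in IC-like and 1.56 in TAL-like cells.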

How the results depend on the processing

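No paired analysis was possible because each condition has 1 library, and no replicate could be left out. Of 110 member ratios in IC-like cells under 11 alternatives, 74 stayed within their counting interval, 31 moved beyond it on the same side of 1, and 5 turned. Resolution 0.6 gave the same IC-like cell numbers, 151 and 128, and the same 10 ratios as the main clustering, so it adds no separate check to these counts. The ratio of Atp6v1g3 turned to 1.06 without integration, 1.02 with the members kept among the variable genes, 1.02 as the mean of each cell's CPM and 1.02 with cells over 25% mitochondrial UMIs left out of the clusters. Foxi1 turned to 0.984 with the members kept. Slc4a1 ranged from 0 (with the members kept) to 0.103 and Insrr from 0.229 to 0.356, both at or below 0.5 in 11 of 11 alternatives, against 10 for Rhcg (0.258 to 0.507) and 8 for Hmx2 (0.411 to 0.628).

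Without integration 2 members were at least 2-fold lower, and the IC-like control cells numbered 227. With the members kept, IC-like cells numbered 58 in control and 45 in ischemia. These ischemia cells held no Slc4a1 UMIs, against 72 UMIs in 26 cells of the main IC-like cluster. The Slc4a1 ratio of 0 therefore belongs to a different set of cells. A gate of 3 IC marker UMIs took 4276 and 3015 cells, 34.0% and 23.0% of kept cells, so its ratios are not those of the IC-like cluster alone. Thinned to 1000 UMIs, the share of IC-like cells with Slc4a1 alone was 16.7% in control and 1.57% in ischemia, that with both exchangers 0.667% and 0%, and that with neither 44.0% and 70.1%. The share with Slc26a4 alone was 28.3% in ischemia. The cause of these shifts was not tested. When cells over 25% mitochondrial UMIs, or those with the highest doublet scores, were left out before clustering, no separate IC-like cluster formed and no value could be given; leaving them out of the existing clusters, clustering the collecting duct again and leaving out the proximal tubule-led sub-cluster were chosen after seeing the data.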
